A study of Drosophila melanogaster with 6 samples.

Results

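The genes described here encode proteins with which Drosophila melanogaster larvae make, store, release and transport fat. They are 10 named genes: bmm, Lsd-1, Lsd-2, ACC, FASN1, Desat1, Lpin, mdy, apolpp and Mtp. Members were found by symbol in the platform annotation of the array. Each of the 10 genes had 1 probe set, so that 10 of 11983 named genes on the array, and 10 of 18769 probe sets for fly transcripts, are described.

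Larvae store fat as triglyceride in droplets of the fat body, a tissue that combines roles of the vertebrate liver and adipose tissue. Fatty acids are built from acetyl-CoA, joined to glycerol and packed into droplets whose surface proteins govern access of lipases. The fat body also loads lipid onto lipophorin, the blood lipoprotein that carries it to other tissues.

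RNA came from whole male larvae in the last larval instar, and 3 arrays were measured per genotype. The mutant males were yw/Yy+;msl21/msl21, homozygous for an allele of msl2 induced by the chemical mutagen EMS, and are called msl2 mutants. The control males were yw/Yy+;msl21/+, so they too carry 1 copy of the allele although their titles call them wt, and both groups share the y and w markers and the marked Y chromosome. Each array held an independent RNA preparation from a pool of at least 50 larvae. MSL2 is a subunit of the complex that raises expression of the single X chromosome of males, and the series asks which genes need it. Values are log2 expression values made by the authors with RMA, a method that corrects background, normalizes the arrays and summarizes the probes of a set, so that 1 unit is a factor of 2 (log2 scale). The msl-2 probe set itself read 5.39, 5.21 and 4.73 in the mutants, against 5.18, 5.14 and 4.86 in the controls, but an EMS allele need not alter the amount of RNA, so this does not check the labels.

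The mutant arrays stood apart from each other in markers of larval stage. Salivary glue is a secretion made late in larval life, and its 6 listed genes, all measured, had a mean log2 value of 6.21 in mutant replicate 1, 13.16 in mutant replicate 2 and 12.57 in mutant replicate 3. In control replicates 1, 2 and 3 the mean was 12.08, 12.19 and 12.79. Of 6 listed fat body genes 3 were measured (Lsp2, Fbp1 and Fbp2), and they had means of 9.13, 13.71 and 12.98 in the mutants, against 12.42, 12.54 and 13.15 in the controls. The difference between control probe sets for the 3' and 5' parts of transcripts, a sign of RNA quality, was 2.19, 1.33 and 1.88 in the mutants, against 1.95, 1.80 and 1.85 in the controls. Mutant replicates 1 and 2 thus lay at opposite ends of all these measures, and results are given below without them where they matter.

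None of the 10 genes passed the test between genotypes. With limma over all 18769 probe sets and a Benjamini-Hochberg adjusted p under 0.05 as the threshold, 0 of 10 members were called, against 0.032% of all probe sets (6 in number, with 0.016% in each direction). At an unadjusted p under 0.05 the counts were 0 of 10 members and 7.51% of all probe sets. Of the members, 5 had a difference (mutant minus control) above 0 and 5 below. Their median difference was 0.05, against 0.01 over all probe sets. All 10 lay in the brightest 25% of probe sets. In whole larvae, fewer fat body cells and less RNA per cell cannot be told apart.

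**Figure D1:**
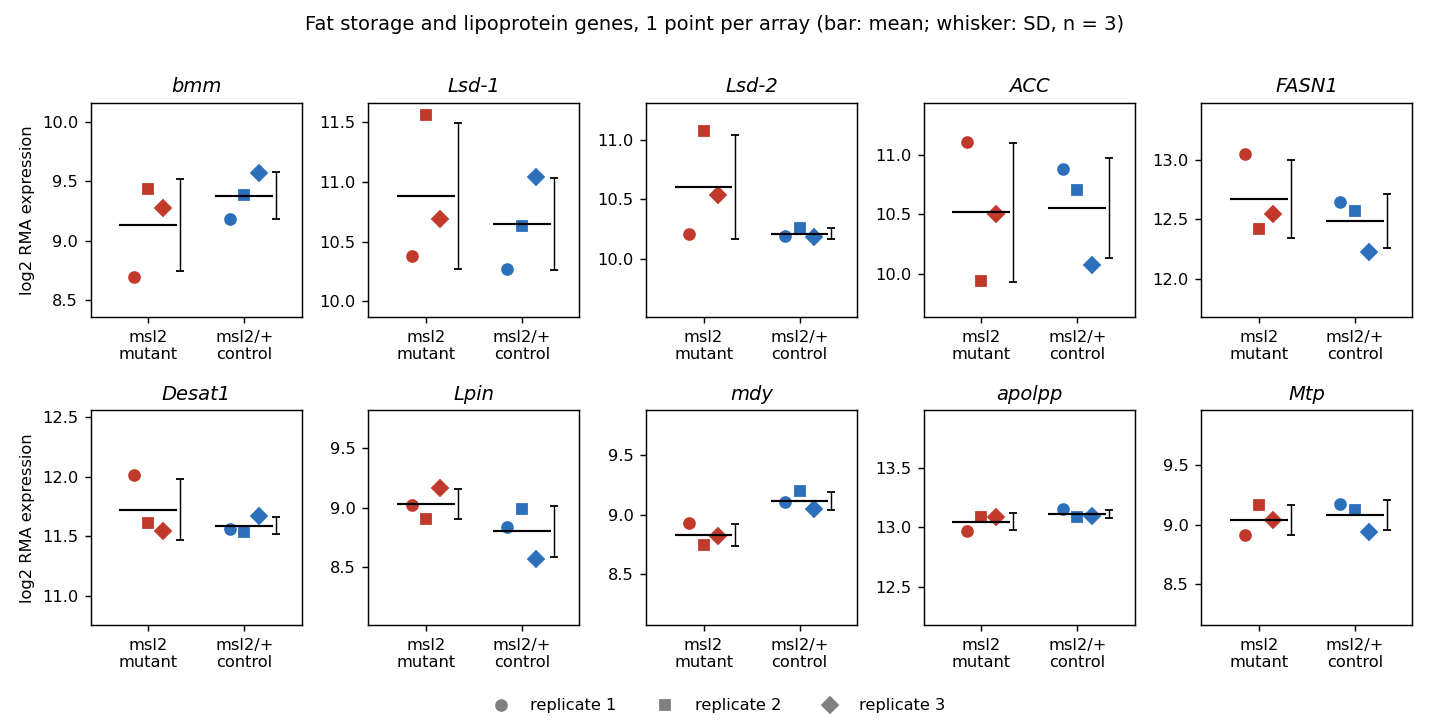
Log2 RMA expression of the 10 genes, 1 panel each, with msl2 mutants in red at the left and msl2/+ controls in blue at the right. Symbols mark replicates, bars the mean and whiskers the SD (n = 3), and every panel spans the same log2 range. The groups are apart in mdy, and the spread of bmm, Lsd-1, ACC and FASN1 is wide in both groups.

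The first 3 genes act at the droplet surface. The gene bmm (brummer, on 3L) encodes the main triglyceride lipase of the fat body, the fly counterpart of ATGL. It had log2 values of 8.70, 9.43 and 9.27 in mutant replicates 1, 2 and 3, against 9.18, 9.38 and 9.57 in control replicates 1, 2 and 3. Mutant replicate 1 was the lowest of the 6 arrays and the groups overlapped. The difference was -0.24 (SE 0.22, limma adjusted p = 0.894), and it was -0.03 without mutant replicate 1, -0.39 without mutant replicate 2 and -0.15 without control replicate 3.

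Lsd-1 (on 3R) encodes a perilipin, a coat protein of the droplet that takes part in hormone-stimulated lipolysis. Its values were 10.38, 11.57 and 10.69 in the mutants, against 10.27, 10.63 and 11.05 in the controls. The highest array was mutant replicate 2 and the lowest control replicate 1, a factor of 2.46 apart, and the groups overlapped. The difference of 0.23 (SE 0.34, limma adjusted p = 0.975) turned to -0.11 without mutant replicate 2. It was 0.48 without mutant replicate 1, 0.04 without control replicate 1 and 0.43 without control replicate 3.

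Lsd-2 (on the X) encodes the other perilipin, which shields droplets from lipases. Its values were 10.21, 11.07 and 10.53 in the mutants, against 10.19, 10.26 and 10.18 in the controls. The controls lay within 0.08 of each other (SD 0.04), while the mutants spread widely (SD 0.44). Mutant replicates 2 and 3 were above every control, and mutant replicate 1 lay within their range. The mean difference of 0.39, a factor of 1.31 (95% interval 0.912 to 1.89), was the largest in size among the 10 genes and did not pass (SE 0.22, limma adjusted p = 0.758). Without mutant replicate 1 it was 0.59, without mutant replicate 2 it was 0.16, and neither value passed (limma adjusted p of 0.649 and 0.606).

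Lsd-2 is the 1 member on the X, whose genes were mostly lower in the mutants. Of 486 X-linked genes in the brightest 25% of probe sets, 409 had a difference below 0, with a median of -0.32. Only 15 of these 486 genes (3.09%) had a difference above that of Lsd-2. Its position among X-linked genes is a description, since its own difference did not pass the test.

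**Figure D2:**
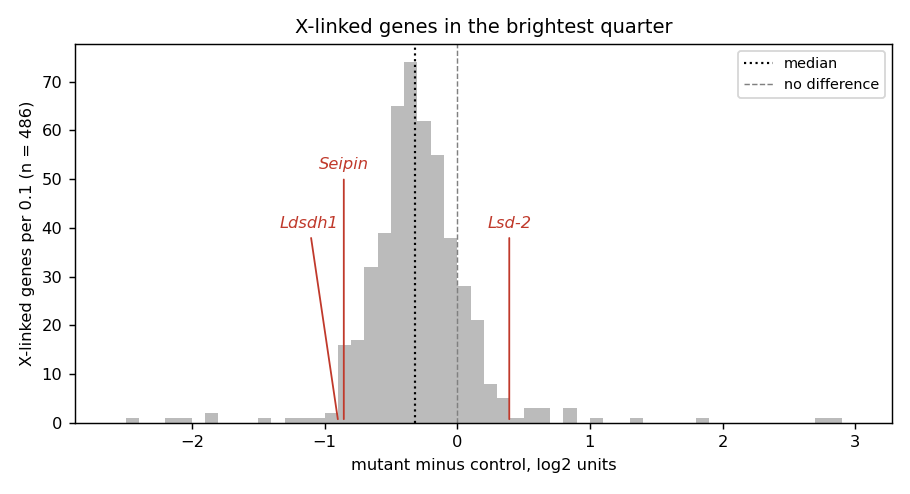
Histogram of the mutant minus control difference (log2 units) of 486 X-linked genes in the brightest 25% of probe sets, with the median dotted. Lsd-2 at 0.39 lies in the upper tail, and the droplet genes Seipin and Ldsdh1, described below, lie in the lower part at -0.86 and -0.90.

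The next 3 genes make acyl chains. ACC (on 2R) encodes acetyl-CoA carboxylase, the committing enzyme of fatty acid synthesis. Its values were 11.11, 9.94 and 10.50 in the mutants, against 10.88, 10.70 and 10.08 in the controls. The highest and the lowest of the 6 arrays were both mutants, a factor of 2.25 apart, and the group means nearly coincided. The difference was -0.03 (SE 0.33, limma adjusted p = 0.998). Leaving out mutant replicate 1 gave -0.33 and leaving out control replicate 3 gave -0.27, but it was 0.25 without mutant replicate 2, 0.13 without control replicate 1 and 0.04 without control replicate 2. Its sign thus changed with single arrays of either genotype.

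FASN1 (on 2L) encodes the fatty acid synthase of the fat body. Its values were 13.04, 12.42 and 12.54 in the mutants, against 12.65, 12.57 and 12.22 in the controls. Mutant replicate 1 was the highest array and the groups overlapped. The difference of 0.19 (SE 0.21, limma adjusted p = 0.936) came to -0.0004 without mutant replicate 1, 0.31 without mutant replicate 2 and 0.06 without control replicate 3.

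Desat1 (on 3R) encodes a desaturase that puts a double bond into fatty acids. Its values were 12.02, 11.61 and 11.54 in the mutants, against 11.56, 11.54 and 11.67 in the controls. Mutant replicate 1 stood above the other 5 arrays, which lay within 0.13 of each other. The difference of 0.13 (SE 0.16, limma adjusted p = 0.954) was -0.01 without mutant replicate 1 and 0.23 without mutant replicate 3. Its probe set, like that of mdy, has an identifier ending in s_at, the maker's mark for probes that may match more than 1 transcript.

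Lpin and mdy act late in triglyceride synthesis. Lpin (on 2R) encodes a phosphatidate phosphatase that yields diacylglycerol. Its values were 9.02, 8.90 and 9.16 in the mutants, against 8.84, 8.99 and 8.57 in the controls. The groups overlapped through control replicate 2 alone, which lay above mutant replicate 2. The difference was 0.23 (SE 0.16, limma adjusted p = 0.805), and 0.12 without control replicate 3.

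The gene mdy (midway, on 2L) encodes the diacylglycerol acyltransferase that completes triglyceride. Its values were 8.93, 8.74 and 8.82 in the mutants, against 9.11, 9.20 and 9.05 in the controls. The highest mutant array was below the lowest control array, which held for no other member and for 5.79% of all probe sets (11.9% had separated groups in either direction). The groups averaged 8.83 ± 0.09 in the mutants and 9.12 ± 0.08 in the controls (SD, n = 3 each), a factor of 0.820 (95% interval 0.670 to 1.002). The difference of -0.29 (SE 0.12) had an unadjusted p of 0.0521 and a limma adjusted p of 0.673. It lay between -0.33 and -0.24 when any 1 array was left out.

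The lipoprotein genes varied least. The gene apolpp (on chromosome 4) encodes apolipophorin, the protein scaffold of lipophorin. Its values were 12.97, 13.09 and 13.09 in the mutants, against 13.15, 13.09 and 13.09 in the controls. The 6 arrays spanned a factor of 1.13, and the difference was -0.06 (95% interval -0.34 to 0.21, limma adjusted p = 0.990), or -0.02 without mutant replicate 1. Of 25 chromosome 4 genes in the brightest 25% of probe sets, 22 had a difference above 0 (median 0.23), and apolpp was among the other 3. Mtp (on 2L) encodes the microsomal transfer protein that loads lipid onto apolipophorin. Its values were 8.91, 9.16 and 9.04 in the mutants, against 9.17, 9.12 and 8.93 in the controls. The difference was -0.04 (95% interval -0.36 to 0.28, limma adjusted p = 0.998), and it lay between -0.11 and 0.025 when any 1 array was left out. As factors, the intervals ran from 0.791 to 1.16 for apolpp and from 0.780 to 1.22 for Mtp, the narrowest of the 10 genes together with that of mdy.

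**Figure D3:**
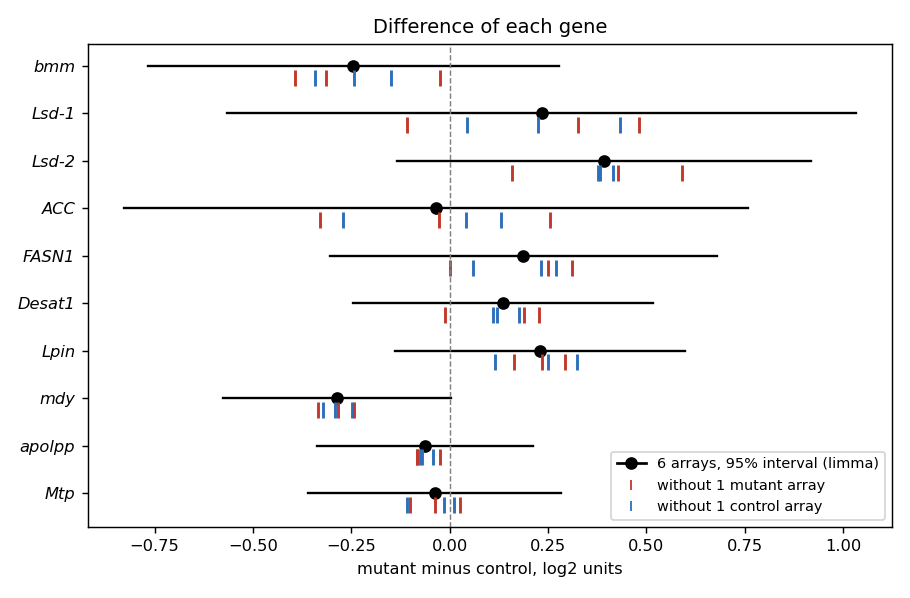
Mutant minus control difference of each gene in log2 units (point) with its 95% interval from limma (line), over 6 arrays. Ticks show the difference without 1 array, red for a mutant and blue for a control array. The intervals of all 10 genes include 0, and the ticks of Lsd-1, ACC, FASN1, Desat1 and Mtp lie on both sides of it.

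For most of the 10 genes the replicates spread more in the mutants. The SD within the group was larger in the mutants for 8 of 10 genes, with a median SD of 0.29 for the mutants against 0.16 for the controls. Over all probe sets it was larger in 79.8%, with medians of 0.26 for the mutants and 0.14 for the controls, so the members' share is close to that of all probe sets. The exceptions were Lpin (SD 0.13 for the mutants, 0.21 for the controls) and Mtp, whose SD was 0.13 for both.

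ACC and FASN1, which make fatty acids, had high values in arrays where bmm and Lsd-1 had low ones. Relative to the control mean, the average of ACC, FASN1 and Desat1 was 0.52, -0.22 and -0.01 in mutant replicates 1, 2 and 3, against 0.15, 0.06 and -0.22 in control replicates 1, 2 and 3. That of bmm, Lsd-1 and Lsd-2 was -0.32, 0.61 and 0.09 in the mutants, against -0.20, 0.01 and 0.19 in the controls. The array order was reversed between these averages in both genotypes. Desat1 did not share the order of its average in either genotype. Lsd-2 shared that of its average in the mutants but not in the controls, which lay within 0.08 of each other. Desat1 was highest among the controls in replicate 3, where the synthesis average was lowest, and its Spearman rho was 0.09 with ACC and 0.03 with FASN1. Lsd-2 had a rho of 0.03 with bmm and of 0.43 with Lsd-1. Its Pearson r with Lsd-1 was 0.79 (exact permutation p = 0.0597, adjusted 0.375). The averages and the grouping of the 4 genes were formed after the values were seen and were not tested.

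Of 45 pairs of the 10 genes, FASN1 and bmm had the strongest relation over the 6 arrays (Pearson r = -0.98, exact permutation p = 0.00278, Spearman rho = -0.94, exact permutation p = 0.0167). After adjustment over the 45 pairs these p-values were 0.125 and 0.25. ACC and Lsd-1 had r = -0.93 (exact permutation p = 0.00556, adjusted 0.125) and rho = -0.94 (exact permutation p = 0.0167, adjusted 0.25). ACC and FASN1 went together, with r = 0.88 (exact permutation p = 0.0111, adjusted 0.167) and rho = 0.94 (exact permutation p = 0.0167, adjusted 0.25). No pair passed 0.05 after adjustment. With 6 arrays and 45 pairs, however, a single pair could not pass however strong it was. The adjusted p-values therefore cannot decide whether a relation exists. Without the 2 arrays farthest from the median of the gene on the x axis, r over the remaining 4 was -0.83 for bmm and FASN1, -0.99 for Lsd-1 and ACC, and 0.90 for ACC and FASN1.

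ACC, FASN1, bmm and Lsd-1 were ranked much like the glue gene mean or its reverse, but no relation to it passed 0.05 after adjustment. The fat body mean ordered the arrays as the glue mean did, so of 30 relations computed with the 3 array measures 20 are distinct in rank, and rank p-values are adjusted over these. ACC had its 6 values in exactly the reverse order of the glue gene mean, from mutant replicate 1 (highest ACC, lowest glue) through control replicates 1 and 2, mutant replicate 3 and control replicate 3 to mutant replicate 2. The Spearman rho was -1 (exact permutation p = 0.00278, the smallest that 6 arrays can give; adjusted 0.0556), and Pearson r was -0.73 (exact permutation p = 0.00972, adjusted over 30 relations 0.0952). FASN1 had rho = -0.94 (exact permutation p = 0.0167, adjusted 0.111) and r = -0.89 (exact permutation p = 0.0153, adjusted 0.0952). The lipase gene bmm had rho = 0.89 (exact permutation p = 0.0333, adjusted 0.167) and r = 0.93 (exact permutation p = 0.0222, adjusted 0.0952). Lsd-1 had rho = 0.94 (exact permutation p = 0.0167, adjusted 0.111) and r = 0.52 (exact permutation p = 0.233, adjusted 0.347). With the duplicate ranks counted, the adjusted p of ACC would be 0.0417. Over the 20 distinct rank relations to the 3 array measures, a single relation could not pass with 6 arrays. The adjusted rank p-values therefore cannot decide whether a relation exists.

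Without the 2 arrays farthest from the median of the glue mean, which are mutant replicates 1 and 2, r over the remaining 4 was -0.96 for ACC, -0.87 for FASN1, 0.72 for bmm and 0.91 for Lsd-1. Within the 3 controls the ACC value was lowest and the glue mean highest in replicate 3, and within the 3 mutants both held for replicate 2. The other 6 genes had rho between -0.49 and 0.37 with the glue mean. For Desat1, apolpp and Mtp, r was -0.92, 0.86 and 0.58 but became 0.71, -0.60 and -0.985 without those 2 arrays, so their relation rests on them.

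No relation of the 10 genes to the 3' minus 5' difference passed after adjustment either. Its relation to ACC was rho = 0.83 (exact permutation p = 0.0583, adjusted 0.194) and r = 0.82 (exact permutation p = 0.0208, adjusted 0.0952), and to Lsd-1 rho = -0.77 (exact permutation p = 0.103, adjusted 0.294) and r = -0.88 (exact permutation p = 0.0222, adjusted 0.0952). Without the 2 arrays farthest from its median, r was 0.39 for ACC and -0.62 for Lsd-1. FASN1 had r = 0.64 (exact permutation p = 0.171, adjusted 0.32) and bmm r = -0.68 (exact permutation p = 0.168, adjusted 0.32). The part of RNA quality and of larval stage in the members' values was not tested separately. With the glue mean as a covariate, an alternative chosen after seeing the data, the difference between genotypes was -0.28 for ACC, 0.03 for FASN1, -0.07 for bmm, 0.45 for Lsd-1 and 0.55 for Lsd-2. None of these passed (limma adjusted p between 0.493 and 0.996).

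**Figure D4:**
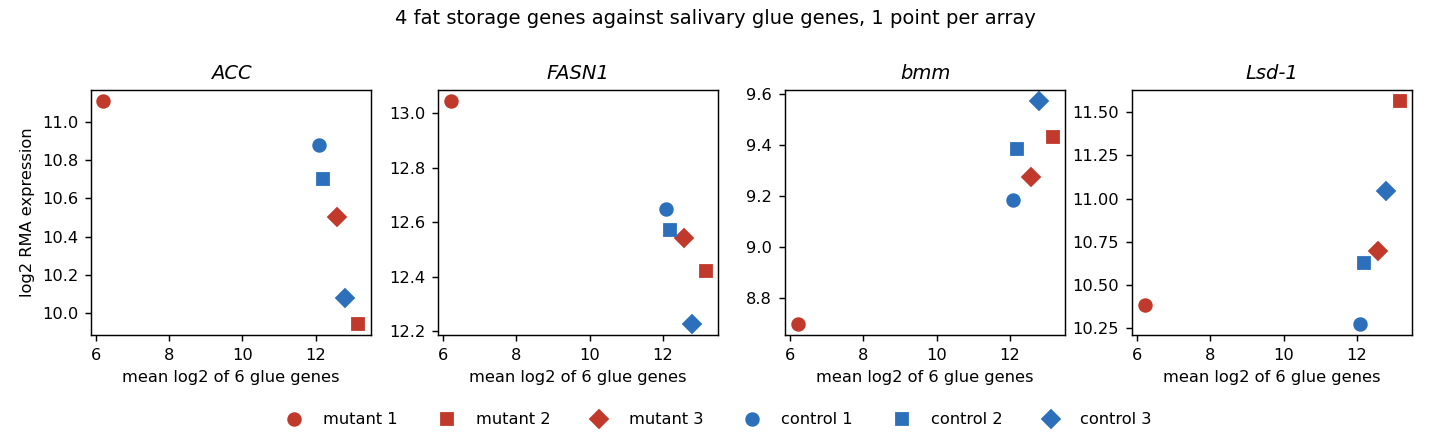
Log2 RMA expression of ACC, FASN1, bmm and Lsd-1 (vertical axes) against the mean log2 value of 6 salivary glue genes (horizontal axis), with 1 point per array, mutants in red and controls in blue. ACC is lower in each array with more glue RNA, while mutant replicate 1 stands alone at a glue mean of 6.21.

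Other genes of fat metabolism were examined in 7 lists with 98 measured genes, each gene by its brightest probe set. Over all 98, 0 passed limma's adjusted threshold over all probe sets. At an unadjusted p under 0.05, 5 were higher and 2 lower. The difference was above 0 in 60 genes (61.2%, median 0.05), against 50.6% of all genes (median 0.00). This lean was that of mutant replicate 1. The median deviation of the 98 from the control mean was 0.22, -0.04 and -0.01 in mutant replicates 1, 2 and 3. Over all genes it was 0.03, 0.04 and -0.05. Groups were apart upward in 7 genes and downward in 3, that is 7.14% and 3.06%, against 6.07% and 5.79% of all probe sets. Without mutant replicate 2, 5 of the 98 passed, against 7.08% of all probe sets. Of these sit, CG33110, Lip1 and tobi were higher in the mutants, against 1.91% of all probe sets, and Seipin was lower, against 5.17%. In the omitted array sit was at 7.66 and CG33110 at 6.47, below every control (8.80 to 9.08 for sit, 7.56 to 8.06 for CG33110). Over all 6 arrays sit differed by 0.11 and CG33110 by 0.40 (limma adjusted p of 0.998 and 0.990).

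The droplet factors hold the 2 lower genes. Seipin (on the X) encodes a protein of the endoplasmic reticulum at which droplets form. Its values were 7.52, 7.51 and 7.48 in the mutants, against 8.12, 8.60 and 8.37 in the controls. The mutant arrays were nearly equal and all far below the controls, with a difference of -0.86 (SE 0.15), a factor of 0.553 (limma adjusted p = 0.212). Leaving out mutant replicate 2 gave -0.86 and a call (limma adjusted p = 0.0329), which leaving out any other single array did not. In a fit that also took account of the RNA quality measure, under which 1.65% of all probe sets were called, Seipin was also called (limma adjusted p = 0.0474). Ldsdh1 (on the X) encodes a dehydrogenase of the droplet surface. Its values were 10.39, 9.30 and 9.84 in the mutants, against 10.61, 10.89 and 10.71 in the controls. The groups were apart, with a difference of -0.90 (SE 0.27, limma adjusted p = 0.504). The third gene with separated groups, sturkopf (on 3L, named after its values were seen), differed by -0.12. Groups were thus apart downward in 3 of the 6 droplet factors, against 5.79% of all probe sets. Among the 486 X-linked genes in the brightest 25% of probe sets, which include Seipin and Ldsdh1, that share was 36.0%. Of the 6 droplet factors 4 had a difference below 0, with a median of -0.15.

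X-linked lipid genes were mostly lower, as X-linked genes are overall. Of 8 X-linked genes in the lists 7 had a difference below 0 (median -0.21), against 31 of 89 autosomal ones (median 0.07). Over all 1873 X-linked genes the counts were 1299 below 0 (median -0.12). The exception among the 8 was CG5966, a lipase gene, at 0.29, with 6.82, 9.14 and 7.41 in the mutants, against 7.24, 7.56 and 7.68 in the controls, so that mutant replicate 2 alone was above the controls.

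Genes that break down fat mostly had differences above 0. So did the regulators of fat storage (76.2%), against 50.6% of all genes. Of 13 measured genes of beta-oxidation, the pathway that shortens fatty acids for energy, 10 were above 0 (median 0.11) and 0 passed. The gene whd encodes the carnitine palmitoyltransferase that admits fatty acids to mitochondria. It had values of 10.16, 10.53 and 10.18 in the mutants, against 9.89, 9.86 and 9.996 in the controls. The groups did not overlap, and whd differed by 0.38 (SE 0.15, limma adjusted p = 0.641). Acox57D-p, a peroxisomal acyl-CoA oxidase gene, differed by 0.41 (SE 0.22, limma adjusted p = 0.745), and by 0.19 without mutant replicate 1. Of 8 lipolysis genes other than bmm 6 were above 0 (median 0.15). The lipase genes Lip3 and Lip1 differed by 0.85 (SE 0.26) and 0.59 (SE 0.36), and neither passed. Without mutant replicate 2 Lip1 was at 1.01 and passed (limma adjusted p = 0.0272), while without mutant replicate 3 it was at 0.34.

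Genes of fat synthesis other than the members showed no common direction. Of 16 genes for fatty acid synthesis and elongation 10 were above 0 (median 0.07), and of 19 genes for glycerolipid synthesis 7 were (median -0.06). FASN3, a fatty acid synthase gene, had values of 8.14, 9.51 and 8.25 in the mutants, against 7.83, 7.04 and 8.02 in the controls. The groups were apart, with a difference of 1.003 (SE 0.42, limma adjusted p = 0.663), and of 0.57 without mutant replicate 2. Elovl7, a fatty acid elongase gene, differed by 0.46 (SE 0.23), by 0.29 without mutant replicate 1 and by 0.28 without control replicate 2. Cds, which makes a precursor of phospholipids, differed by 0.25 (SE 0.13), and eas, the X-linked ethanolamine kinase gene, by -0.29 (SE 0.16), or -0.17 without mutant replicate 3.

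Among 15 lipid carriers and receptors 9 were above 0 (median 0.03) and no gene had separated groups, against 11.9% of all probe sets. Acbp2, which binds acyl-CoA, differed by 0.28 (SE 0.18), and by 0.13 without control replicate 1. LpR2, a lipophorin receptor gene, differed by 0.23 (SE 0.17), by 0.37 without mutant replicate 3 and by 0.13 without control replicate 2. Of 21 genes listed as regulators of fat storage 16 were above 0 (median 0.11), with the medians per mutant array given above. Among them 3 had separated groups, all higher (14.3%, against 6.07% of all probe sets). The glucosidase gene tobi, counted in this list, is one that responds to insulin-like peptides and dietary protein. Its values were 7.93, 6.61 and 7.13 in the mutants, against 4.93, 4.66 and 4.50 in the controls. All mutant arrays were far above the controls (difference 2.53, SE 0.33, limma adjusted p = 0.0869), and without mutant replicate 2 it passed (2.84, limma adjusted p = 0.00688). With all 6 arrays, tobi also passed with array weights, the RNA quality covariate or the glue covariate, fits described below. The 7 midgut marker genes also averaged higher, with 12.64, 11.85 and 12.20 in the mutants, against 10.90, 11.20 and 11.34 in the controls, and their part in the values of tobi and the lipase genes was not tested. Mal-A1 (3.06) and Mal-A6 (3.20) had by far the largest differences of the 7, the median was 0.33, and epsilonTry (0.00), Jon65Aiv (-0.02) and betaTry (0.06) were near 0. InR, the insulin receptor gene, had values of 5.50, 5.39 and 5.30 in the mutants, against 5.15, 4.87 and 4.83 in the controls. InR thus differed by 0.45 (SE 0.14, limma adjusted p = 0.53). Unlike the 10 members, InR, tobi, Lip1, Lip3 and LpR2 had a mean over the 6 arrays below that of the median probe set. The third regulator with separated groups, Mondo, a sugar-sensing transcription factor gene named after its values were seen, differed by 0.37.

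**Figure D5:**
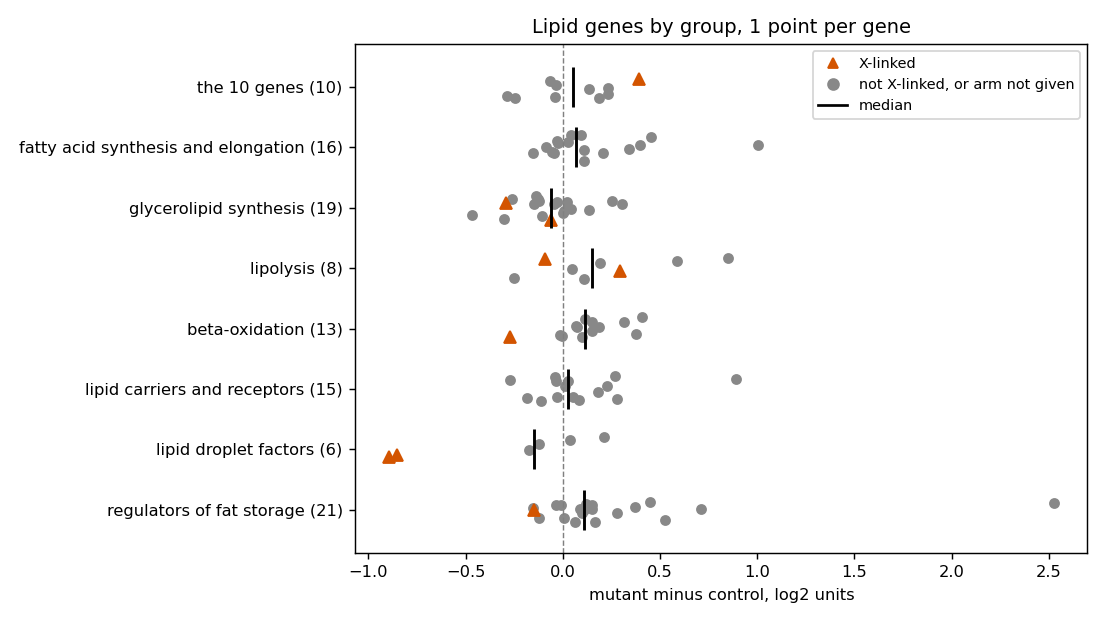
Mutant minus control difference in log2 units for the 10 genes and 7 lists of other lipid genes (number of genes in brackets), 1 point per gene, with vertical bars at the medians. Triangles mark X-linked genes, of which Lsd-2 at 0.39 is the highest and Ldsdh1 at -0.90 the lowest, and the point at 2.53 is tobi.

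For the 3 members with the largest differences in size, the genes with the most similar values over the 6 arrays were sought among 8042 other genes brighter than the median probe set. Closest to Lsd-2 were jdp (Pearson r = 0.9917) and CG2852 (r = 0.9912). For mdy they were CG1662 (r = 0.9935) and CG7497 (r = 0.9879), and for bmm CG7335 (r = 0.9949) and CG33284 (r = 0.9942). Such likeness is common with 6 arrays, since r was above 0.9 for 163 genes with Lsd-2, 189 with mdy and 208 with bmm. CG1662, on the X, had values of 7.78, 7.37 and 7.54 in the mutants, against 8.02, 8.17 and 7.95 in the controls. CG7497, on 3L, had 7.79, 6.94 and 7.31 in the mutants, against 8.36, 8.53 and 8.23 in the controls. Both were chosen for their likeness to mdy, so the separation of genotypes in them is largely fixed by that choice.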

How the data were processed

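From each Affymetrix Drosophila Genome array the authors deposited a log2 value for every probe set, made with RMA per the labels. The scanner software was GCOS 1.4, per the submitters' processing notes. For the program that ran RMA, a name and version were not given in the sources used. RMA makes the arrays' distributions alike, so a shift of all genes is not visible.

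Gene symbols come from GEO's platform annotation, which can be old. Of 18952 probe sets, 183 controls were left out, 13647 had 1 gene, 402 several (never named) and 4720 were unnamed here. A RefSeq gene table gave chromosome arms. Groups and replicates were taken from the titles. Differences were tested with limma 3.58.1 in R 4.3.3 (lmFit and eBayes, two-sided, Benjamini-Hochberg over 18769 probe sets), a fit also tested on simulated data. There 2% of changes of 0.5 log2 units and 32% of changes of 1 unit were called (50 probe sets each). Differences of the members' size would thus mostly not be called. The simulation gave both genotypes the same SD, unlike these data. Relations over arrays were tested by exact permutation in Python 3.11.15. Named are all members, in each lipid list any called genes (up to 4) or, failing that, those 2 having the lowest p, and the 2 genes most like each of 3 members. Genes named outside this rule were chosen after their values were seen. Members and lists were chosen with earlier results of these data known. Alternatives were array omission, a replicate block, other filters, variance models, weights, scalings and covariates. Arrays have no read depth, and their number limits the precision.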

Additional observations from a re-analysis of the deposited data

How the results depend on the processing

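No member passed the threshold under any of the 16 alternatives, and of the members Lsd-1, ACC, FASN1, Desat1 and Mtp changed sign under at least 1. With 1 array left out the differences lay between -0.11 and 0.48 for Lsd-1, -0.33 and 0.25 for ACC, -0.0004 and 0.31 for FASN1, -0.012 and 0.23 for Desat1, -0.11 and 0.025 for Mtp, and -0.28 and 0.0031 for CG7335. With array weights, which gave mutant replicate 2 a weight of 0.218, Lsd-1 was at -0.033 and ACC at 0.17. With the 3' minus 5' covariate ACC was at 0.055, and with the glue covariate, added after seeing the data, Mtp was at 0.0063. The cause was not tested. The count of all probe sets past the threshold (6) was 0 with the replicate block, 2 with 1 probe set per gene, 12 with trend and robust, 61 with array weights, 12 scaled to the autosomal median, 309 with the 3' minus 5' covariate and 13 with the glue covariate, and between 0 and 1329 without 1 array, the highest without mutant replicate 2. Its split of 3 higher and 3 lower was 4 and 8 scaled to the autosomal median and 1 and 3 after quantile normalization. Of the other lipid genes (0 past the threshold), 1 passed with array weights (tobi) and 1 with the glue covariate (tobi). With the 3' minus 5' covariate 2 passed (Seipin and tobi), and between 0 and 5 did without 1 array. Same-numbered arrays did not deviate together (r = 0.166, -0.331 and 0.064), but 3 arrays per group cannot settle whether the numbers pair them. With the replicate block 0 members and 0 other lipid genes passed.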
